A study of Mus musculus with 56 samples.

Results

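Follistatin (Fst), the follistatin-like genes Fstl1 and Fstl3, the activin subunit genes Inhba and Inhbb, the protease gene Bmp1, the ligand genes Bmp4 and Bmp7, and the BMP antagonist Grem1 were followed through all conditions of an RNA-seq series from mouse mammary tumor cells. These 9 genes, of 20314 in the table, were selected on an earlier reading of the same data, in which Fst fell with TGFb in fl/fl cells but not in D164A/- cells. The values of those 2 TGFb responses, and of the difference in TGFb response between D164A/- and D164A/fl cells, are therefore given as a description with no test. Each of the 9 genes was found in the table by its Entrez identifier.

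The cells were lines grown from mammary tumors of MMTV-PyMT mice (FVB/N), in which the MMTV promoter drives the polyoma middle T oncogene in mammary epithelium, so every line carries that transgene. The β-catenin genotypes were fl/fl, D164A/fl, D164A/-, ΔC/fl, ΔC/-, dm/fl and dm/-. The fl allele is a floxed β-catenin allele that served as wild type, D164A is a point mutation that prevents binding of the co-activators Bcl9 and Bcl9L, and per the study's methods the D164A/- lines arose by adenoviral Cre and sorting. What ΔC and dm change is not given in the sources used here. Each genotype was either left untreated or given Wnt3a at 100 ng/ml for 3 days, and in a separate experiment either left untreated or given TGFb at 2 ng/ml for 4 days, with 2 samples per condition and 56 samples in 28 conditions. The labels do not say whether the 2 samples are separate cultures or separate lines, so p-values measure the spread between these samples, which may be technical, and a genotype cannot be told apart from the line that carries it. The treatment note in the labels speaks of Pygo2 lines although every sample is labelled by its β-catenin genotype.

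Activins are dimers of inhibin beta subunits, encoded by Inhba and Inhbb, and belong with the BMPs to the TGFb superfamily. They bind serine-threonine kinase receptors that phosphorylate SMAD proteins. Follistatin and the product of Fstl3 bind activins outside the cell and keep them from their receptors, whereas gremlin binds BMP4 and BMP7. BMP1, despite its name, is a metalloprotease that trims procollagens and cleaves the BMP antagonist chordin. The product of Fstl1 is a secreted glycoprotein related to follistatin in sequence. In the mammary gland these factors take part in branching of the ductal epithelium.

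Sequencing gave 22396315 to 33681869 reads assigned to genes per sample, and 1 read was worth 0.0306 to 0.0486 CPM (reads of a gene scaled by the effective library size of its sample), so that 3 reads corresponded to 0.0917 to 0.146 CPM. These limits cover counting error only. Correlations between the 2 samples of a condition on the log2 scale ranged from 0.833 to 0.995, with the dm/fl pair without Wnt3a the lowest. Epcam, Cdh1, Krt8, Krt18 and Krt14, markers of epithelial cells, were above 1 CPM in all 56 samples. Axin2, a target of Wnt signaling, rose with Wnt3a by 2.84 to 5.98 on the log2 scale in 6 of 7 genotypes, but its values in dm/- were 0 and 0 CPM without Wnt3a and 0 and 0.0791 CPM with it (log2 difference 0.05). Ctnnb1, the β-catenin gene itself, was read at 531 to 3188 CPM, and reads over the whole gene do not show the mutations.

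The 9 genes covered very different levels. Bmp1 was the most abundant per length, with a median over 56 samples of 38.0 CPM per kilobase of exon and a highest condition mean of 245. Inhbb followed with a median of 14.1 CPM per kilobase and Fst with 11.6. Inhba, with a median of 5.81 CPM per kilobase, Fstl3 with 0.973 and Bmp4 with 0.492 were lower. Bmp1, Inhba and Inhbb reached 1 CPM in 56 samples, Fst in 55, Fstl3 in 33, Bmp4 in 30, Bmp7 in 24 and Fstl1 in 10. Grem1 reached 1 CPM in only 2 samples, both fl/fl, and its highest value was 1.33 CPM. All 9 genes passed the filter on low values (1 CPM in 2 samples), Grem1 only through those 2 fl/fl samples, so its differences from fl/fl are not independent of the filter. Fstl1 passed only through the ΔC/fl samples and the TGFb-treated dm/- samples. Its differences between these and other groups are likewise not independent of the filter.

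Follistatin was read first in the TGFb experiment. In fl/fl cells (gene on chr13:114452262-114458989, GRCm38) Fst was at 136 and 151 CPM without TGFb and at 1.24 and 1.62 CPM with it. The treated values were 101-fold lower in the mean, a log2 difference of -5.90 ± 0.51 (SE). In D164A/- cells Fst was at 8.72 and 21.3 CPM without TGFb and at 30.2 and 16.0 CPM with it. The ranges overlapped, with a log2 difference of 0.65 ± 0.51. The untreated level in D164A/- cells was thus far below that of untreated fl/fl cells. Untreated ΔC and dm cells, given below, also lay far below fl/fl cells. The fl/fl and D164A/- responses chose the gene. Among all 13754 genes tested, 6.25% were called in fl/fl and 4.06% in D164A/- with the limma fit used below (a call needs an adjusted p at or under 0.05 and a change of at least 1 on the log2 scale).

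**Figure D1:**
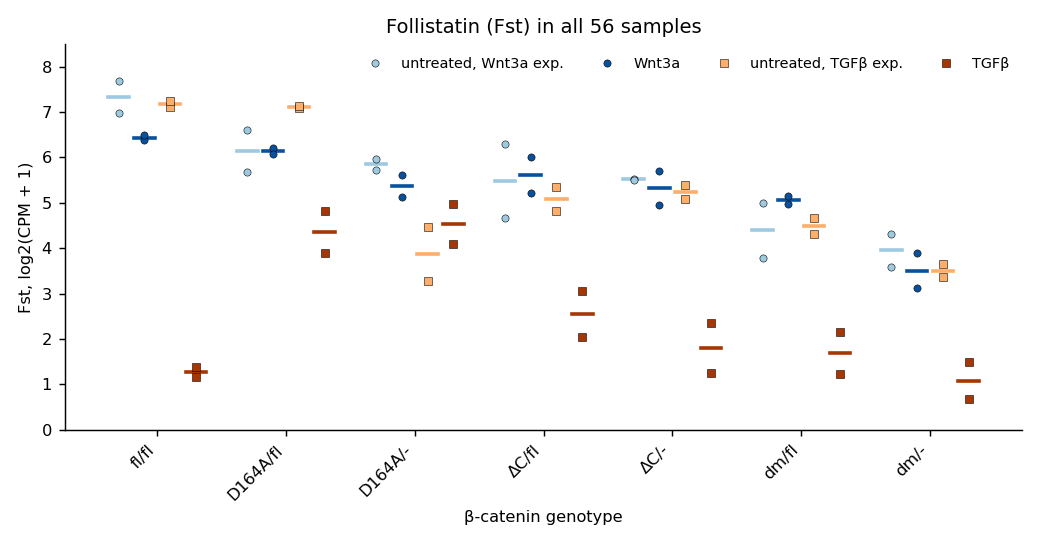
Fst as log2(CPM + 1) for the 7 genotypes, in the Wnt3a experiment (circles) and the TGFb experiment (squares), with every sample as a point and the mean of the 2 log values as a line. TGFb-treated samples lie below the untreated ones in 6 genotypes. In D164A/- the 2 ranges overlap, and all samples of the TGFb experiment lie between 8.72 and 30.2 CPM.

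In the 5 other genotypes Fst fell with TGFb in every case, by limma with Benjamini-Hochberg adjustment. In D164A/fl it went from 135 and 139 CPM to 13.8 and 27.1 CPM, a log2 change of -2.75 ± 0.51 (adjusted p = 0.000625). In ΔC/- it went from 32.7 and 41.1 CPM to 4.13 and 1.38 CPM, the strongest fall of the 5, at -3.43 (adjusted p = 1.66e-05). In dm/fl it went from 24.5 and 18.8 CPM to 3.43 and 1.35 CPM, a change of -2.80 (adjusted p = 0.000128). Every treated sample lay below every untreated one in each of these genotypes, and these 3 calls were kept when any 1 library was left out.

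The other 2 falls were each not called in a fit with 1 library left out, which leaves 1 sample in that group. In ΔC/fl Fst went from 27.2 and 39.9 CPM to 3.11 and 7.32 CPM, a change of -2.54 (adjusted p = 0.000681 by limma). In dm/- it went from 9.26 and 11.6 CPM to 1.82 and 0.595 CPM, a change of -2.42 (adjusted p = 0.00154). The ranges were apart in both. Without ΔC/fl +TGFb replicate 1 the adjusted p in ΔC/fl was 0.0509, and without dm/- +TGFb replicate 2 that in dm/- was 0.0640. The D164A/fl cells, which carry the D164A allele beside a floxed allele, therefore showed the fall, and D164A/- was the 1 genotype of 7 in which the 2 treatments overlapped.

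The difference in response between the deleted and the floxed genotype (deleted minus floxed) was tested for Fst in the ΔC and dm pairs. It was -0.89 in ΔC, with a 95% interval from -2.37 to 0.58 (adjusted p = 0.794 by limma), and 0.38 in dm, with an interval from -1.10 to 1.85. Neither passed the test. The D164A difference was 3.40 ± 0.72, given with no test because it holds the D164A/- response, on which the gene was chosen. Of all genes, 1.35% were called for the TGFb difference in D164A, 3.13% in ΔC and 7.31% in dm.

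Fstl3 encodes another secreted activin binder. In fl/fl it went from 12.2 and 8.65 CPM to 68.2 and 87.2 CPM with TGFb, as a description a 7.47-fold higher mean, and in D164A/- from 0.656 and 0.762 CPM to 2.20 and 2.38 CPM. In dm/fl it rose from 2.86 and 3.00 CPM to 16.7 and 22.5 CPM, a log2 change of 2.38 ± 0.34 (adjusted p = 3.05e-06 by limma). In ΔC/fl it rose from 1.04 and 0.730 CPM to 7.64 and 4.30 CPM, a change of 1.85 (adjusted p = 0.000214). Thus in both genotypes the antagonist that fell, Fst, was accompanied by one that rose. In D164A/fl the change of 1.05 had an adjusted p of 0.0760. In ΔC/- the values were 0.621 and 0.566 CPM without TGFb and 0.232 and 0.198 CPM with it, and in dm/- 0.122 and 0.248 CPM against 0.341 and 0.297 CPM. No change was called in either.

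The response of Fstl3 differed within both of these pairs. It was lower by 2.24 on the log2 scale in ΔC/- than in ΔC/fl (adjusted p = 0.0043 by limma), and lower by 2.22 in dm/- than in dm/fl (adjusted p = 0.00195). The levels in the deleted lines lay near 0 CPM, where a difference depends on the pseudocount. With a pseudocount of 0.1 the adjusted p for dm was 0.0726, and on the whole reads it was 0.216 with edgeR and 0.211 with DESeq2.

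The sequence before the start of Fstl3 is shown because Fstl3 rose with TGFb, those of Inhba and Bmp4 because they changed in opposite directions in dm/fl. Each is the 250 bases upstream of the annotated start, from RefSeq on GRCm38.p6, with matches on either strand to the SMAD box CAGAC or to the TCF core CTTTGA or CTTTGT in capitals. They lie at chr10:79777024-79777273 (plus strand), chr13:16011601-16011850 (plus strand, within the span of the gene) and chr14:46390670-46390919 (minus strand).
Fstl3: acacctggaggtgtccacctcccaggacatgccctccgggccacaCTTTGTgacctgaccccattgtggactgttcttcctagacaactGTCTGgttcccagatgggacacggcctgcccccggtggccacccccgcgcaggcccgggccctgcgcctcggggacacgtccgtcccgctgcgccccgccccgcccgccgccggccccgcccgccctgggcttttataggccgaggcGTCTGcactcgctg
Inhba: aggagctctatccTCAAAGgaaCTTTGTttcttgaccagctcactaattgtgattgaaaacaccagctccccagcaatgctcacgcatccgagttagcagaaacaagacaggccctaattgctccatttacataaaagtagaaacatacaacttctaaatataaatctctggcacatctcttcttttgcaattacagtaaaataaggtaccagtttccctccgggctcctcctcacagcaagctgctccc
Bmp4: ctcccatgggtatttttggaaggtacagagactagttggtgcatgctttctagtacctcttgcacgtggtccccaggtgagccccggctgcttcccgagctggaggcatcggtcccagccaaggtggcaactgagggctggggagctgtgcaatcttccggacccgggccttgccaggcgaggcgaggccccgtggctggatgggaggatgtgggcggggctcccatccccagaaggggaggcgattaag
CAGAC occurred in 42.2% of 32851 windows of the same length, CTTTGA in 13.8% and CTTTGT in 16.5%. The Fstl3 window held 2 matches to CAGAC, 161 and 14 bases before the start, and 1 match to CTTTGT. The Inhba window held 1 match each to CTTTGA and CTTTGT, and that of Bmp4 held none of the 3. A match of so few letters is a description of the sequence.

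Fstl1 was near 0 in most lines. In ΔC/fl, however, it stood at 277 and 91.5 CPM without TGFb and at 963 and 425 CPM with it, a log2 rise of 2.00 ± 0.35 (adjusted p = 0.000116 by limma). The ranges were apart, but on the whole reads the adjusted p was 0.0503 with edgeR and 0.0582 with DESeq2. In dm/- Fstl1 went from 0.0611 and 0.0354 CPM to 1.02 and 2.25 CPM, called at 1.29 (adjusted p = 0.0163 by limma). This call is not independent of the filter on low values. That call was lost without dm/- -TGFb replicate 1 (0.0922), without dm/- -TGFb replicate 2 (0.116) and without dm/- +TGFb replicate 2 (0.287).

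Fibroblast markers were high in ΔC/fl, but not only there. The summed level of the 8 markers was 79.1 to 779 CPM in ΔC/fl and 6.46 to 26.3 CPM in ΔC/-, and in dm/- it went from 7.06 and 8.06 CPM without TGFb to 37.5 and 127 CPM with it. The dm/fl samples held 72.0 to 554 CPM of the same markers with Fstl1 at no more than 0.561 CPM, and the D164A/- samples held 50.8 to 146 CPM with Fstl1 at no more than 0.485 CPM. Within ΔC/fl the sum was 779 and 321 CPM without TGFb and 507 and 421 CPM with it, while Fstl1 rose. Pdgfra reached 1 CPM in 56 of 56 samples, Col1a1 in 42, Pdgfrb in 28, Col3a1 in 19, Col1a2 in 16 and Dcn in 6. The highest values were 494 CPM for Pdgfrb, 302 for Pdgfra, 184 for Col3a1, 70.9 for Col1a1, 15.6 for Col1a2 and 3.49 for Dcn. Lum and Thy1 stayed below 0.12 CPM everywhere. Per the study's methods fibroblasts had been removed from the cultures by repeated short trypsin treatment. The part of these genes in the result was not tested, and in bulk samples fewer cells of a type and less RNA per cell cannot be told apart.

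**Figure D2:**
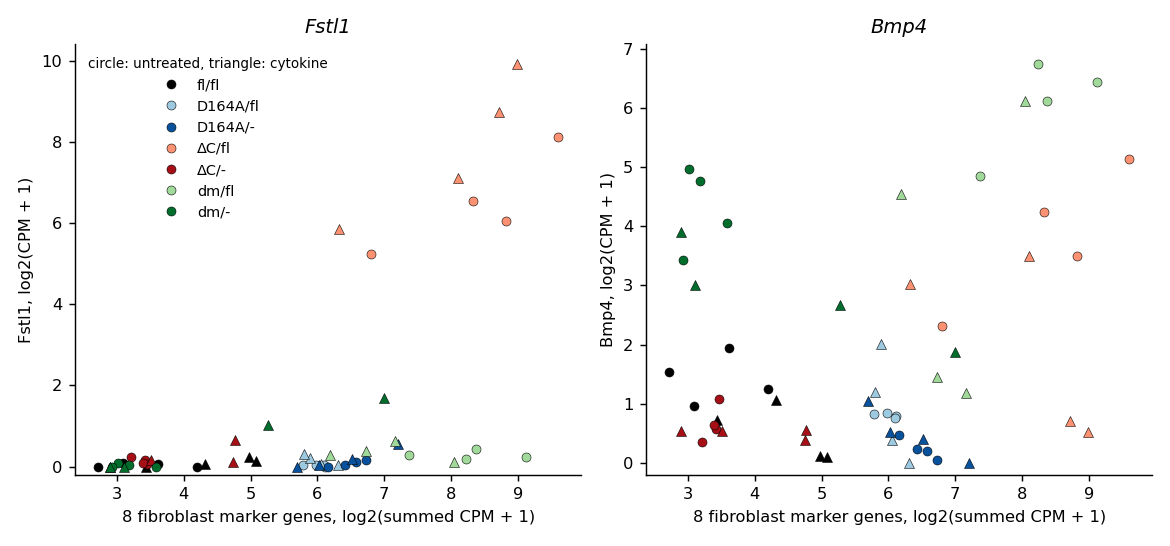
Summed fibroblast marker level against Fstl1 and Bmp4, 1 point per sample, both axes as log2(CPM + 1), circles for untreated and triangles for cytokine-treated samples, colored by genotype. Fstl1 above 30 CPM is seen only in ΔC/fl, whose marker sum lies at 79.1 to 779 CPM. TGFb-treated dm/fl samples lie at 105 to 142 CPM of marker sum and below 2 CPM of Bmp4.

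The activin subunit genes did not follow Fst. Inhba, which encodes the subunit of activin A, was in fl/fl at 161 and 105 CPM without TGFb and at 271 and 299 CPM with it, and in D164A/- at 4.13 and 12.3 CPM against 13.0 and 42.6 CPM, both given as a description. In dm/fl it rose from 22.8 and 29.6 CPM to 160 and 163 CPM, a log2 change of 2.59 ± 0.68 (adjusted p = 0.00732 by limma). The call was lost without dm/fl -TGFb replicate 1 (0.0878) and without dm/fl +TGFb replicate 2 (0.0566). In D164A/fl the values went the other way, from 139 and 153 CPM to 35.7 and 44.0 CPM, without passing the test (-1.85, adjusted p = 0.138 by limma), although it passed when only the compared groups were fitted (0.0392). In dm/- they were 69.2 and 60.3 CPM against 29.5 and 35.1 CPM. The response in dm/- was lower than that in dm/fl by 3.57 (adjusted p = 0.0151), a call lost without dm/fl -TGFb replicate 1 (0.0775), dm/- -TGFb replicate 1 (0.0529), dm/- +TGFb replicate 1 (0.0607) or dm/fl +TGFb replicate 2 (0.0528).

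Inhbb, which encodes the subunit of activin B, was called with TGFb in none of the 5 genotypes by limma, at an unadjusted p under 0.05 in 0 of them. In fl/fl it was at 54.7 and 20.8 CPM without TGFb and at 2.00 and 3.27 CPM with it, 14.3-fold lower in the mean as a description. In D164A/- it was at 276 and 232 CPM against 151 and 88.1 CPM. Its changes in the 5 tested genotypes ran from -0.97 to 0.82 on the log2 scale with an SE of 0.64. Without dm/- +TGFb replicate 1, the library at 123 CPM beside another at 17.8 CPM, Inhbb in dm/- was called at -2.28 (adjusted p = 0.0363).

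**Figure D3:**
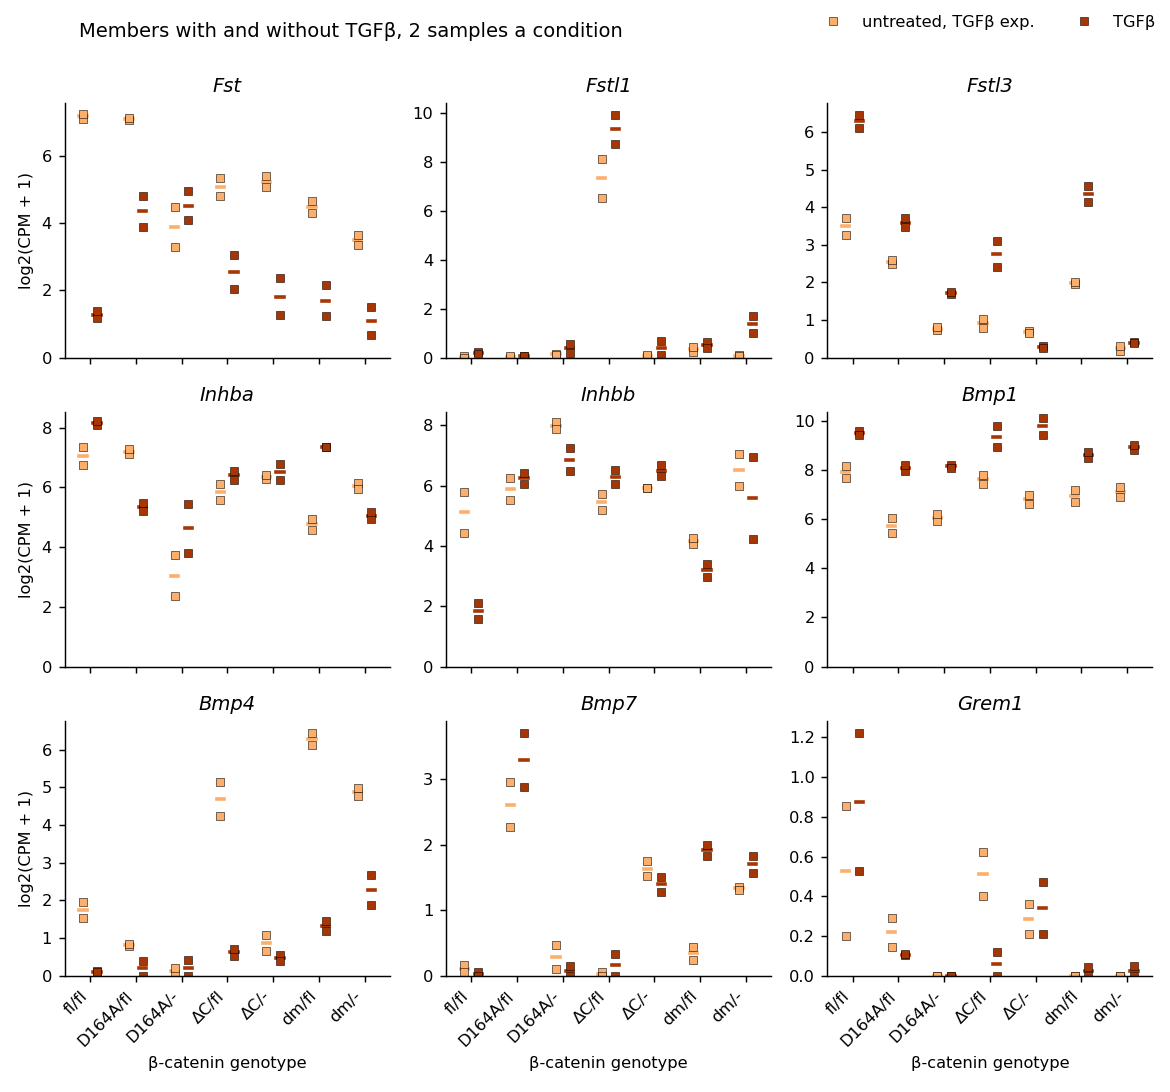
Levels of the 9 genes as log2(CPM + 1) in the TGFb experiment, each sample as a point and the mean as a line, untreated (light) beside TGFb-treated (dark), by genotype, with a separate vertical scale per gene. Bmp1 is higher and Fst lower with TGFb in each of the 5 tested genotypes, whereas Inhba rises in dm/fl from at most 29.6 to at least 160 CPM and lies lower in D164A/fl.

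Bmp1 rose in each of the 5 tested genotypes. In ΔC/- it went from 97.9 and 125 CPM to 687 and 1115 CPM, the largest of these changes at 2.97 ± 0.55 (adjusted p = 0.000335 by limma), and this call was kept without any 1 library. In D164A/fl it went from 41.9 and 64.3 CPM to 250 and 297 CPM (2.37, adjusted p = 0.00679). In ΔC/fl it went from 224 and 170 CPM to 874 and 493 CPM (1.75, adjusted p = 0.0373). All treated samples lay above all untreated ones. In dm/fl the values went from 104 and 144 CPM to 362 and 429 CPM (1.68, adjusted p = 0.0380), and in dm/- from 156 and 117 CPM to 445 and 523 CPM (1.83, adjusted p = 0.0339). The fl/fl and D164A/- cells, as a description, moved by 1.57 and 2.10.

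Apart from that in ΔC/-, the Bmp1 calls were lost in fits with 1 library left out, which leave 1 sample in a group. In D164A/fl the call was lost without D164A/fl -TGFb replicate 1 (0.166) or D164A/fl +TGFb replicate 2 (0.0961). In ΔC/fl it was lost without ΔC/fl -TGFb replicate 1 (0.0927), ΔC/fl +TGFb replicate 1 (0.411) or ΔC/fl -TGFb replicate 2 (0.254). In dm/fl and dm/- it was lost without any 1 of the 4 libraries compared, with adjusted p of 0.0780 to 0.295 and of 0.0949 to 0.270. The direction stayed upward in each of these fits, with changes of 1.45 to 1.92 in dm/fl and of 1.62 to 2.03 in dm/-.

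Bmp4, a BMP ligand, fell where it was expressed. In dm/fl it went from 85.4 and 68.5 CPM to 1.28 and 1.74 CPM with TGFb, 51.0-fold lower in the mean (log2 change -4.95 ± 0.46, adjusted p = 6.88e-10 by limma). In ΔC/fl it went from 34.3 and 18.0 CPM to 0.438 and 0.638 CPM (-4.08, adjusted p = 9.09e-08). In dm/- it went from 30.4 and 26.3 CPM to 5.34 and 2.68 CPM (-2.60, adjusted p = 0.000159). The ranges were far apart in all 3. In fl/fl, as a description, 2.86 and 1.91 CPM became 0.0887 and 0.0736 CPM. D164A/fl, D164A/- and ΔC/- were below 1.2 CPM in every sample of this experiment.

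The fall was smaller in the deleted lines. The Bmp4 response was 3.68 higher in ΔC/- than in ΔC/fl (adjusted p = 0.000487 by limma), where untreated ΔC/- was at 1.13 and 0.566 CPM, and 2.35 higher in dm/- than in dm/fl (adjusted p = 0.0173). The dm difference had adjusted p of 0.0851 with a pseudocount of 0.1 and 0.117 with edgeR. It was lost without dm/fl -TGFb replicate 1 (0.0930), dm/fl +TGFb replicate 1 (0.0686), dm/- +TGFb replicate 1 (0.128) or dm/- -TGFb replicate 2 (0.0742). The fibroblast marker sum in dm/fl was 554 and 332 CPM without TGFb and 142 and 105 CPM with it, and its part in the result was not tested.

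Bmp7, another BMP ligand, rose in dm/fl from 0.187 and 0.351 CPM to 2.56 and 2.99 CPM (1.57, adjusted p = 0.000113 by limma) and was called in no other tested genotype. Grem1 was called in none by limma, with an unadjusted p under 0.05 in 1 of 5, and its changes ran from -0.45 to 0.06. In all, 19 of 45 gene-by-genotype tests were called in the TGFb experiment, 11 higher and 8 lower, and 11 of the 19 were kept without any 1 library. When only the compared groups were fitted 9 of the 19 were lost, with adjusted p of 0.0559 to 0.231, all of them in ΔC/fl or dm/-. By genotype these were 2 of 9 genes in D164A/fl beside 3.38% of all genes, 5 in ΔC/fl beside 7.74%, 2 in ΔC/- beside 6.55%, 6 in dm/fl beside 10.3% and 4 in dm/- beside 6.12%. Over the 5 genotypes 6.82% of all tests were called. The genes were picked with earlier results of these data known, which the count carries. The Fstl1 call in dm/- is among the 19 and is not independent of the filter on low values.

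**Figure D4:**
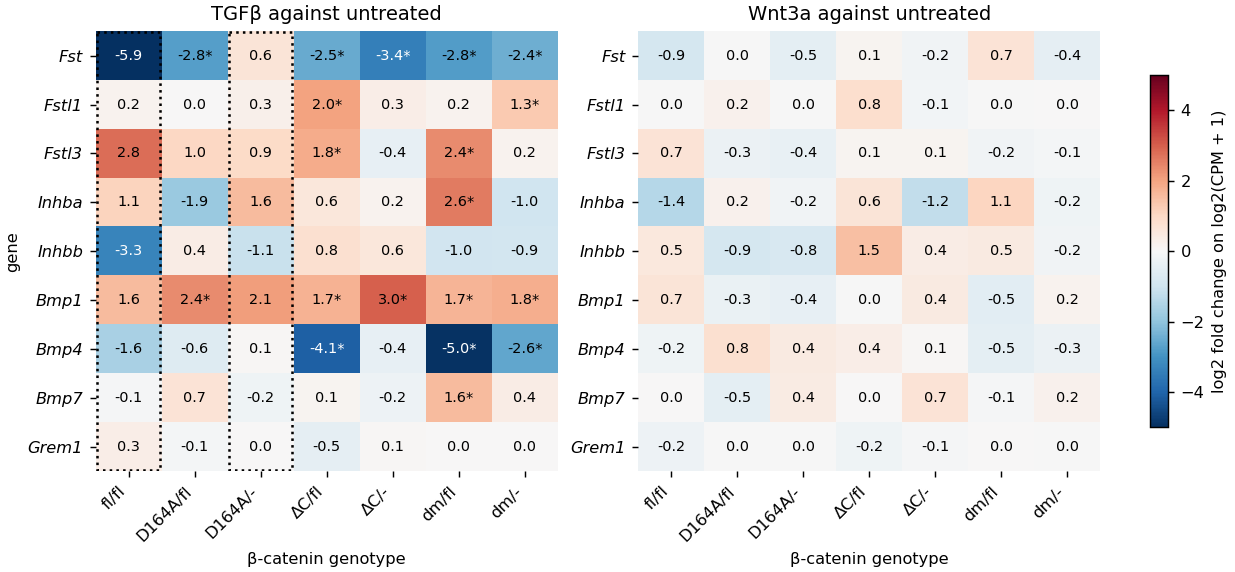
Log2 change with Wnt3a and with TGFb for each of the 9 genes in each of the 7 genotypes, on a color scale that ends at 5 in either direction, with an asterisk for a called change and a dotted box around the 2 TGFb responses on which the genes were chosen. The TGFb panel holds 19 asterisks, among them 5 for Fst and 5 for Bmp1, and the Wnt3a panel holds none.

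Wnt3a changed none of the 9 genes by the same rule. Of 63 tests by limma 0 were called, 4 had an unadjusted p under 0.05, and 0 were called on the whole reads with edgeR or DESeq2. The share of all genes called was 0.378% in fl/fl, 4.15% in D164A/fl, 0.654% in D164A/-, 0.225% in ΔC/fl, 0.0509% in ΔC/-, 0.574% in dm/fl and 0.0% in dm/-. Few genes of any kind were thus called except in D164A/fl, where the share with TGFb was 3.38%. Without dm/fl -Wnt3a replicate 2, of the pair that stood apart, Bmp1 (-1.66, adjusted p = 0.0200) and Bmp4 (-1.42, adjusted p = 0.0173) were called in dm/fl. Without D164A/fl -Wnt3a replicate 1, Bmp7 was called in D164A/fl (-1.13, adjusted p = 0.0152).

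Fst in fl/fl was at 125 and 204 CPM without Wnt3a and at 82.1 and 89.6 CPM with it. The treated values were lower but the change, -0.89, had a 95% interval from -1.93 to 0.15. In D164A/- Fst went from 61.6 and 51.8 CPM to 48.1 and 34.0 CPM, a change of -0.47 with an interval from -1.52 to 0.57. In D164A/fl the interval ran from -1.06 to 1.03 and in dm/fl from -0.38 to 1.71. The 95% intervals of the TGFb change in D164A/fl (-3.79 to -1.71) and dm/fl (-3.84 to -1.76) lie below the Wnt3a intervals of the same genotypes. The TGFb change in fl/fl also lies below its Wnt3a interval, as a description. In D164A/- the ranges with and without TGFb overlapped, so there was no TGFb fall to compare. Inhba in fl/fl went from 64.8 and 104 CPM to 18.0 and 51.0 CPM (-1.41, adjusted p = 0.359). In an alternative fit with a block for the replicate number, this Inhba change was called (adjusted p = 0.0186 by limma). Log2 changes of all genes followed GC content in fl/fl (Spearman rho 0.74), in ΔC/- (0.77) and in dm/fl (-0.75), and with the GC trend removed 0 of the 63 tests were called as before. The difference in Wnt3a response between deleted and floxed lines was called by limma for none of the 9 genes, beside 0.974% of all genes in D164A, 0.00727% in ΔC and 0.109% in dm. Over both cytokines 5 of 45 tests of a difference were called, beside 2.3% of all tests. All 5 were in TGFb, 2 of 9 genes in ΔC beside 3.13% of all genes and 3 of 9 in dm beside 7.31%.

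Untreated cells differed more between genotypes than with Wnt3a. In the untreated samples of the Wnt3a experiment Fst was highest in fl/fl, at 165 ± 56.2 CPM (SD, n = 2). D164A/fl followed at 73.3 ± 32.2 CPM, D164A/- at 56.7 ± 6.92, ΔC/fl at 50.8 ± 37.4 and ΔC/- at 44.8 ± 0.769, and neighbors among these 4 overlapped. The dm/fl and dm/- lines were lowest, at 21.9 ± 12.7 CPM and, in dm/-, at 11.01 and 18.98 CPM in the 2 samples, and overlapped with each other. Between neighbors in this order, only fl/fl and D164A/fl, and ΔC/- and dm/fl, were apart.

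Against fl/fl, Fst was called lower in 5 of 6 genotypes, all compared with the same 2 fl/fl samples. The log2 differences were -3.37 in dm/- (adjusted p = 5.9e-06 by limma), -2.93 in dm/fl (4.76e-05), -1.85 in ΔC/fl (0.00943), -1.81 in ΔC/- (0.00931) and -1.48 in D164A/- (0.0341). In D164A/fl it was -1.18 (0.0889). When only the compared groups were fitted, the call was lost in dm/fl (0.180), ΔC/fl (0.198), ΔC/- (0.0669) and D164A/- (0.0589). Without fl/fl -Wnt3a replicate 2, the higher of the 2, the call was lost in ΔC/fl (0.136), ΔC/- (0.142) and D164A/- (0.297). It was also lost without ΔC/fl -Wnt3a replicate 2 (0.426), without ΔC/- -Wnt3a replicate 1 (0.0512), and in D164A/- without D164A/- -Wnt3a replicate 1 (0.0835) or replicate 2 (0.179), with edgeR (0.0532) and with a pseudocount of 0.1 (0.0602).

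**Figure D5:**
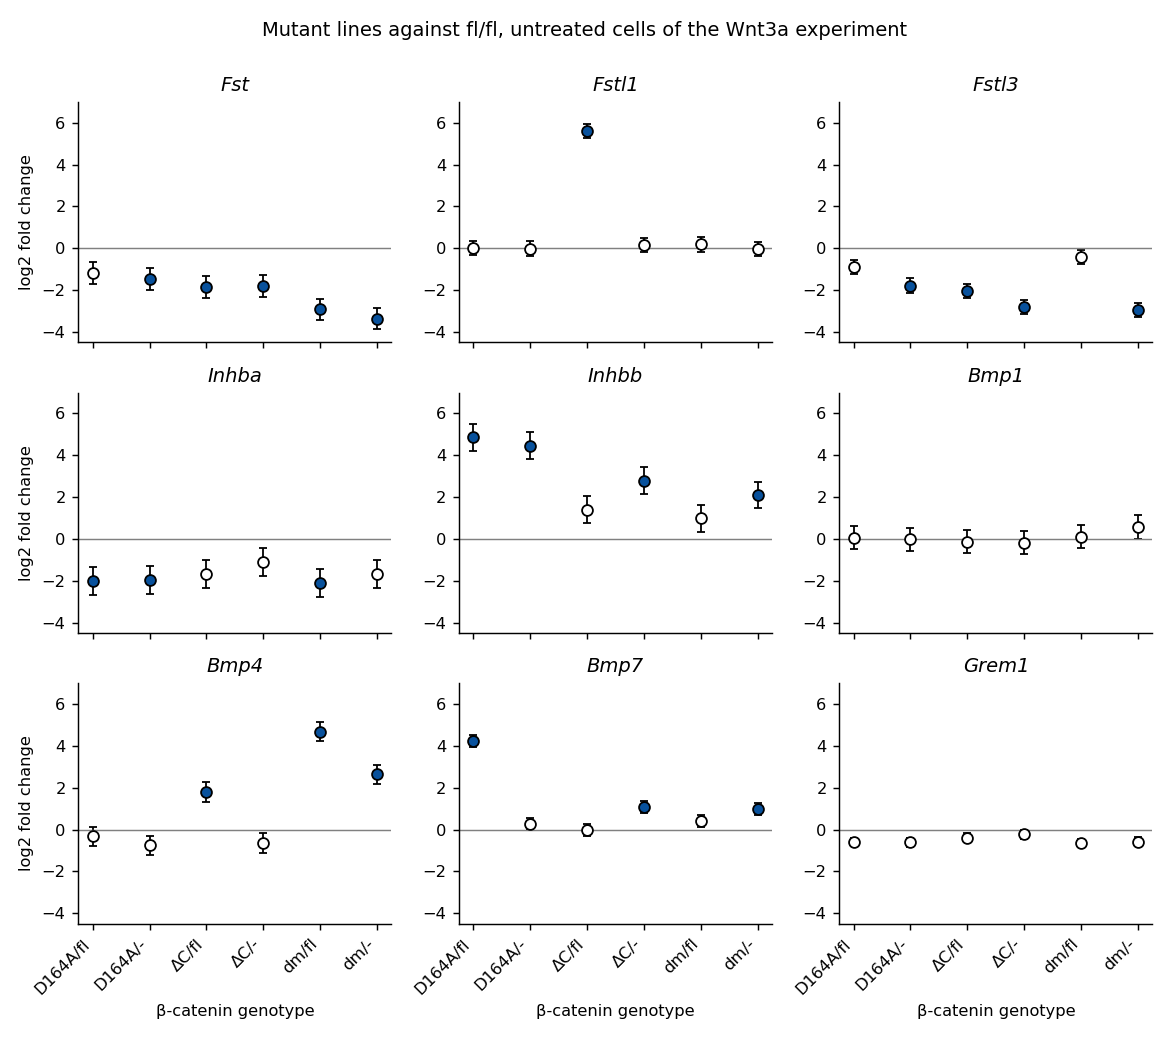
Log2 difference of each of the 9 genes between each mutant genotype and fl/fl in untreated cells of the Wnt3a experiment, with standard errors as bars and filled points for called differences. Fst lies below fl/fl in all 6 mutant genotypes and Inhbb above it, while Bmp1 stays between -0.18 and 0.57.

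The activin subunit genes moved in opposite directions between genotypes. Inhbb was at 8.45 and 6.25 CPM in fl/fl, at 181 and 318 CPM in D164A/fl and at 176 and 189 CPM in D164A/-. The differences were 4.86 (adjusted p = 3.16e-07 by limma) and 4.47 (1.43e-06). Inhbb was also higher in ΔC/-, at 45.5 and 68.5 CPM (2.78, 0.00149), and in dm/-, at 26.3 and 45.2 CPM (2.10, 0.0161). The dm/- call was lost without fl/fl -Wnt3a replicate 2 (0.127), without dm/- -Wnt3a replicate 2 (0.166) and with the GC trend removed (0.0726).

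Inhba was lower than in fl/fl in 3 genotypes. It was at 64.8 and 104 CPM in fl/fl, at 50.6 and 7.21 CPM in D164A/fl, at 26.6 and 15.5 CPM in D164A/- and at 17.1 and 19.6 CPM in dm/fl. The differences were -2.01 (adjusted p = 0.0272 by limma), -1.97 (0.0345) and -2.11 (0.0153). Each call was lost in some fits with 1 library left out, which leave 1 sample in a group. In D164A/- the differences in these fits were -2.34 to -1.59. The D164A/fl call was lost without fl/fl -Wnt3a replicate 2 (0.204) or D164A/fl -Wnt3a replicate 2 (0.693) and with edgeR (0.107) or DESeq2 (0.0790). The D164A/- call was lost without any 1 of its 4 libraries (0.0532 to 0.260). The dm/fl call was lost without dm/fl -Wnt3a replicate 1 (0.139) or fl/fl -Wnt3a replicate 2 (0.120) and with the GC trend removed (0.0624).

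Fstl3 was lower than in fl/fl in D164A/- (-1.79, adjusted p = 0.000118 by limma), ΔC/fl (-2.04, 2.73e-05), ΔC/- (-2.80, 9.47e-08) and dm/- (-2.94, 3.52e-08). It was at 9.46 and 5.79 CPM in fl/fl and at 0.0749 and 0.119 CPM in dm/-. Fstl1 was higher in ΔC/fl only, at 36.8 and 65.6 CPM beside at most 0.0631 CPM in fl/fl (5.60, 3.8e-14). That difference is not independent of the filter on low values. With the GC trend removed Fstl3 was also called lower in D164A/fl (-1.52, adjusted p = 0.000708, beside -0.90 in the fit used here) and in dm/fl (-1.45, 0.0013, beside -0.42).

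The BMP ligands rose in particular genotypes. Bmp4 was at 106 and 27.9 CPM in dm/fl and at 15.7 and 9.85 CPM in dm/-, beside 0.946 and 1.38 CPM in fl/fl (4.69, adjusted p = 1.16e-09 by limma, and 2.64, 4.32e-05). With only the compared groups fitted, Bmp4 was not called in dm/fl (adjusted p = 0.143 by limma). In ΔC/fl, at 3.99 and 10.3 CPM, it was called at 1.80 (0.0045) but not without fl/fl -Wnt3a replicate 1 (0.0584) or ΔC/fl -Wnt3a replicate 2 (0.225). Bmp7 was at 11.1 and 29.2 CPM in D164A/fl while no fl/fl sample exceeded 0.121 CPM (4.23, 1.06e-13). It was also called in ΔC/- (1.06, 0.00607) and in dm/- (1.00, 0.00969), at about 1 CPM, and the dm/- call was lost without dm/- -Wnt3a replicate 1 (0.0759) or fl/fl -Wnt3a replicate 2 (0.0709). With the GC trend removed these 2 differences were 0.84 and 0.50, below the size a call needs. Bmp1 was called in none of the 6 by limma, with an unadjusted p under 0.05 in 0 of them. Grem1 was kept in the fit only by its fl/fl samples and is not counted here. With the GC trend removed, however, Bmp1 in dm/fl turned from 0.11 to -1.06 and was called (adjusted p = 0.000661 by limma).

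In all, 23 of 48 tests of the 8 genes other than Grem1 were called against fl/fl, 11 higher and 12 lower. The Fstl1 call in ΔC/fl is among the 23 and is not independent of the filter on low values. By genotype, 3 of 8 were called in D164A/fl beside 19.7% of all genes, 4 in D164A/- beside 17.1%, 4 in ΔC/fl beside 13.8%, 4 in ΔC/- beside 15.4%, 3 in dm/fl beside 32.7% and 5 in dm/- beside 18.3%. The count in dm/fl is near the share of all genes. Of the 23 calls 14 were kept without any 1 library, and 11 were lost when only the compared groups were fitted.

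Between the deleted and the floxed line of the same mutant allele, Bmp7 separated the D164A pair. In the Wnt3a experiment it was at 11.1 and 29.2 CPM in D164A/fl and at 0.109 and 0.338 CPM in D164A/- (-3.97, adjusted p = 3.84e-12 by limma, beside 3.21% of all genes). In the TGFb experiment it was at 3.82 and 6.79 CPM against 0.0772 and 0.381 CPM (-2.33, 1.28e-07, beside 16.5%). Inhba was at 139 and 153 CPM in D164A/fl and at 4.13 and 12.3 CPM in D164A/- in the TGFb experiment (-4.15, 1.85e-05). In the Wnt3a experiment, however, Inhba was at 50.6 and 7.21 CPM against 26.6 and 15.5 CPM, which overlapped.

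The D164A/- samples without TGFb are among those on which Fst was chosen. The tests of the other genes in this comparison use the same samples and are not independent of that choice. Fst there, at 8.72 and 21.3 CPM, was 9.10-fold below D164A/fl at 135 and 139 CPM, which is given as a description. In the Wnt3a experiment untreated Fst in the pair was at 96.1 and 50.6 CPM in D164A/fl and at 61.6 and 51.8 CPM in D164A/-, and the ranges overlapped. Thus untreated Fst in D164A/- was at 51.8 CPM or more in one experiment and at 21.3 CPM or less in the other, and the experiments differ in days of culture. Fstl3 was lower in D164A/- in the TGFb experiment (-1.77, adjusted p = 0.000158 by limma) and Inhbb higher (2.10, 0.0153). The Inhbb call was lost without D164A/fl -TGFb replicate 1 (0.177), D164A/- -TGFb replicate 1 (0.109) or D164A/- -TGFb replicate 2 (0.0542).

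In the ΔC pair Fstl1 was at 36.8 and 65.6 CPM in ΔC/fl and at 0.124 and 0.173 CPM in ΔC/- in the Wnt3a experiment (-5.45, adjusted p = 2.46e-13 by limma). In the TGFb experiment the difference was -7.25 (2.2e-16). Neither Fstl1 difference is independent of the filter on low values. Bmp4 was also lower in ΔC/- in the 2 experiments (log2 differences -2.44, 0.000263, and -3.83, 9.85e-08), and Bmp7 higher, by 1.09 (0.00909) and 1.60 (7.89e-05). The first Bmp7 call was lost without ΔC/- -Wnt3a replicate 1 (0.0521) or ΔC/fl -Wnt3a replicate 2 (0.0717). The fibroblast marker sum was 110 and 453 CPM in untreated ΔC/fl of the Wnt3a experiment, and its part in the Fstl1 and Bmp4 results was not tested. Of all genes 8.16% were called in the ΔC pair of the Wnt3a experiment and 12.0% in that of the TGFb experiment.

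In the dm pair Fstl3 was at 8.98 and 2.95 CPM in dm/fl and at 0.0749 and 0.119 CPM in dm/- (-2.52, adjusted p = 7.91e-07 by limma), and in the TGFb experiment it was also lower (-1.73, 0.000201). Bmp4 was lower in dm/- in both experiments (-2.05, 0.00107, and -1.40, 0.0244). The first of these was lost without dm/fl -Wnt3a replicate 1 (0.122). The second was lost without any 1 of its 4 libraries (0.0570 to 0.175), with edgeR (0.145), with DESeq2 (0.0897) and with a pseudocount of 0.1 (0.137). Inhbb was higher in dm/- in the TGFb experiment (2.35, 0.00644), a call lost without dm/fl -TGFb replicate 1 (0.0589) or dm/- -TGFb replicate 1 (0.133). Of all genes 16.5% were called in the dm pair of the Wnt3a experiment and 16.1% in that of the TGFb experiment. Over the 3 pairs and both experiments, leaving out Fst in D164A of the TGFb experiment, 16 of 53 tests of the 9 genes were called, 4 higher and 12 lower, beside 12.1% of all tests. The calls of Bmp7, Inhba, Fstl3 and Inhbb in D164A of the TGFb experiment are among them and share samples with the choice of Fst. The Fstl1 calls in ΔC are also among them and are not independent of the filter. When only the compared groups were fitted 6 calls were lost, all in the Wnt3a experiment: Bmp7 in D164A (0.227), Fstl1, Bmp4 and Bmp7 in ΔC (0.0925, 0.213 and 0.0767) and Fstl3 and Bmp4 in dm (0.173 and 0.539). With the GC trend removed Inhbb was also called higher in the Wnt3a experiment, in ΔC/- (1.89, 0.00562) and in dm/- (1.69, 0.00749).

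The other genes of the pathway were counted from lists of known receptors, ligands, modulators, SMADs and BMP targets. With TGFb, over the 5 tested genotypes, 8 of 60 tests of 12 activin and BMP receptors were called, 6 higher and 2 lower, beside 6.82% of all tests. Acvrl1, a type I receptor, rose in 3 genotypes, by 1.54 in ΔC/fl, 1.05 in ΔC/- and 1.34 in dm/fl. Of 6 other activin, BMP and GDF ligands 7 of 30 tests were called, 2 higher and 5 lower. Of 8 SMAD proteins 6 of 40 tests were called, 4 higher and 2 lower. Smad7, an inhibitory SMAD induced by TGFb, rose in 4 genotypes with changes of 1.07 to 1.57, while Smad6 and Smad9 were each called lower in 1. Of 14 other antagonists and modulators 13 of 70 tests were called, 8 higher and 5 lower, among them Pcolce2, an enhancer of procollagen C-proteinase activity, which rose in 3 genotypes by 2.11 to 3.11.

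BMP target genes, a list of 8, were called in 11 of 40 tests with TGFb, 10 of them lower, beside 6.82% of all tests. Id1, a dominant-negative regulator of helix-loop-helix factors, fell, with log2 changes of -1.85 in ΔC/fl, -1.83 in ΔC/- and -2.23 in dm/fl, and Id4 fell in the same 3 genotypes. The list's median change ran from -1.79 to 0.39 over the 5 genotypes, beside -0.02 to 0.03 for all genes. With Wnt3a 6 of 56 tests of this list were called, beside 0.862% of all tests, all lower, 2 of them Hey1 (-4.61 in D164A/fl and -2.37 in D164A/-). By genotype they were 3 in D164A/fl beside 4.15% of all genes, 1 in D164A/- beside 0.654% and 2 in dm/fl beside 0.574%. In dm/fl the untreated pair had the lowest correlation, 0.833, and changes of all genes followed GC content (rho -0.75). No alternative fit is given for these 6 calls. Against fl/fl 30 of 48 tests were called and all were higher, beside 19.5% of all tests, with Msx2 higher in 6 of 6 genotypes by 1.88 to 6.64. Nog, which encodes the BMP antagonist noggin, was lower in 6 of 6, with differences of -3.41 to -2.12. These 6 comparisons share their fl/fl samples.

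Patterns over the 28 condition means were compared by Pearson's r on the log2 scale, as a description. The genes most like Fst were Tfb1m (0.82), Mal2 (0.81), Rab25 (0.78), Larp1b (0.78) and Sorbs2 (0.78). Fstl1 was closest to Naalad2 (0.99), Fstl3 to Sox11 (0.87), Bmp1 to Pxdn (0.89) and Bmp4 to Il6ra (0.92). Between the genes themselves Fst and Bmp1 ran most strongly against each other, at -0.73. The points share libraries and genotypes.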

How the data were processed

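RNA of 56 samples from mouse mammary tumor cell lines (28 conditions of 2 samples) was sequenced by the authors from stranded poly(A) libraries. Per the labels and the study's methods, reads were aligned with STAR to mm10, unique hits kept, and reads starting in RefSeq exons counted per gene. The deposited signal values are CPM of 20314 Entrez genes, which here stand for whole reads over an effective library size (scaling factors 0.809 to 1.14), and whole reads were recovered for 100% of values within 0.001 reads. The authors normalised these signal values before deposit, and 20261 genes had a RefSeq symbol.

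Genes at 1 CPM or more in 2 samples (13754) were fitted with limma 3.58.1 in R 4.3.3 on log2(value + 1), 1 coefficient per condition and 28 residual degrees of freedom, with Benjamini-Hochberg adjustment per comparison. Fold changes on this scale understate changes of low genes. A call needed an adjusted p at or under 0.05 and a log2 change of at least 1. The 95% intervals come from the same fit. The values were not whole counts as deposited, so edgeR 4.0.16 and DESeq2 1.42.0 on recovered reads were alternatives, beside another pseudocount (0.1), no filter, rescaling, fits on the compared groups alone, a replicate block, removal of the GC trend (lowess span 0.3), a rule of unadjusted p at most 0.05 with 1.5-fold, and each library left out. Same-numbered samples deviated together in 12 of 14 responses (correlations 0.32 to 0.94), but not in ΔC/- with TGFb (-0.25) or dm/fl with Wnt3a (-0.10). The labels do not say whether the numbers pair the samples. The main fit takes no account of such a pairing, and the replicate block is given as an alternative. The fit was tested on simulated data. Promoter windows came from RefSeq on GRCm38.p6 and held 6 of the 9 genes.

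The 9 genes, the gene lists and the alternatives were chosen with earlier results of these data known. All 9 genes were named, with at most 3 genes per pathway list called in the largest number of a family's comparisons, of which a part is printed, and the checks Ctnnb1 and Axin2, while 1 further check is not reported here. The genes most like each member by Pearson's r over the 28 condition means (5 for Fst, 1 for the others) were also named.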

Additional observations from a re-analysis of the deposited data

Results flagged for a closer look

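Some TGFb responses differed between the deleted and the floxed line of the same allele, by the interaction term of the limma fit (deleted minus floxed, log2 scale). For ΔC the difference was -2.24 for Fstl3 and 3.68 for Bmp4. For dm it was -2.22 for Fstl3, -3.57 for Inhba and 2.35 for Bmp4. These were 5 of 45 tests, beside 2.3% of all tests. In dm, Fstl3 and Bmp4 were not called with edgeR (adjusted p = 0.216 and 0.117). The Inhba call in dm was lost in some fits with 1 library left out. A floxed line and its deleted partner are also different cell lines or sorts, so that allele and line cannot be told apart, and Fstl3 in both deleted lines lay below 1 CPM.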

How the results depend on the processing

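The counts of called tests among the 9 genes were recomputed under each alternative. For TGFb the 19 calls became 11 when only the compared groups were fitted, and 16 to 20 when a library was left out. For Wnt3a the 0 calls became 1 with the replicate block, 1 with the block and the GC trend removed, 4 under the unadjusted rule, and 0 to 2 without a library. The 23 calls against fl/fl became 13 with only the compared groups and 16 to 26 without a library, the fewest without fl/fl -Wnt3a replicate 2. The 17 calls between deleted and floxed lines, Fst in D164A of the TGFb experiment included, became 12 with only the compared groups and 15 to 18 without a library. The 5 differences in response became 3 with edgeR, 8 with the block, 8 with the block and the GC trend removed, 9 under the unadjusted rule and 3 to 7 without a library, the fewest without dm/fl -TGFb replicate 1. Bmp1 in dm/fl against fl/fl reversed from 0.11 to -1.06 with the GC trend removed, with or without the block. The fits on compared groups alone hold fewer samples, and the cause of the other changes was not tested.

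Over all genes, Wnt3a calls numbered 830, and 457 with edgeR, 2208 with the block, 2168 with the block and the GC trend removed, 0 with only the compared groups and 6245 under the unadjusted rule. TGFb calls over all 7 genotypes, fl/fl and D164A/- included, numbered 6111, and 3225, 9603 and 14361 with only the compared groups, with the block and the GC trend removed, and under the unadjusted rule. Calls against fl/fl went from 16101 to 6481 with only the compared groups and 27853 under the unadjusted rule, those between deleted and floxed lines from 9967 to 19183 under the unadjusted rule, and differences in response over all 6 comparisons, TGFb in D164A included, from 1770 to 707 with edgeR, 3742 with the block, 4832 with block and GC trend, and 6467 under the unadjusted rule. On the recovered reads edgeR called 5919 for TGFb, 11333 between deleted and floxed lines and 19271 against fl/fl. The replicate block moved TGFb calls among the 9 genes to 21 and those against fl/fl to 25. With the block Inhba (adjusted p = 0.000652 by limma) and Fstl3 (0.0131) were called in D164A/fl with TGFb, and Inhba in fl/fl with Wnt3a (0.0186). In ΔC/- with TGFb the numbers ran against each other (correlation -0.25), and a crossed block, added after seeing the data, gave 1364 calls beside 1363 with the block and 901 without.

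Depth limits Fstl1, Bmp7 and Grem1 in most lines, where values are within a few reads of 0, and with 2 samples per condition 1 library can decide a call. Of the 64 calls among the 9 genes, Fst in D164A of the TGFb experiment included, 24 were lost without some library.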
